A study of Mus musculus with 12 samples.

Results

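The comparison described here set cardiomyocyte RNA of mice after 5/6 nephrectomy against that of mice after sham surgery, both given saline. Its members were the 3 NX saline libraries (NX, nephrectomy) and the 3 sham saline libraries, 6 of the 12 libraries of the series, taken by the surgery and injection that the labels give. All 12 libraries came from isolated cardiomyocytes of the heart of wild-type (WT) C57BL6 mice, collected 16 weeks after surgery. The other 6 libraries came from sham-operated and nephrectomized mice injected with JV101, an agent that the labels name but do not describe. Those libraries entered the fit to estimate the spread and, in the last paragraphs, gave the same surgical contrast in separate libraries. Neither group carried a transgene or deletion according to the labels. Age, sex, the saline schedule and measures of kidney or heart function are not given in the labels, and neither is whether each library came from 1 mouse. The p-values therefore measure only the spread between these samples.

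The 5/6 nephrectomy is a surgical model of chronic kidney disease in which most of the renal mass is removed and the remnant filters too little. Retained uremic solutes and phosphate, raised blood pressure, high FGF23 and altered hormone levels then reach the heart, and hypertrophy, fibrosis and altered energy use are what this model is known for there. Adult ventricular cardiomyocytes burn mainly fatty acids in their many mitochondria, rarely divide, and depend on chaperones to keep sarcomere proteins folded.

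The libraries matched their labelled cell type. All 15 ventricular cardiomyocyte markers were measured, and their summed level was 62381, 52244 and 58102 CPM (counts scaled to library size with TMM factors) in sham saline 1, 2 and 3 and 64088, 48158 and 43933 CPM in NX saline 1, 2 and 3. The alpha-myosin heavy chain gene Myh6, the main adult ventricular myosin of the mouse, was at 21845, 17242 and 15401 CPM in sham and 16234, 12449 and 12569 CPM in NX. Values stand in this order of replicates throughout, and sham and NX mean the saline groups. Markers of other cells were present as well: the 16 fibroblast markers summed to 1019.7, 1533 and 1789.5 CPM in sham and 1293, 2080.5 and 2137 CPM in NX, and the 16 endothelial markers to 1864, 1737 and 1453 and 1067, 2869.6 and 3779.5 CPM. In such bulk libraries fewer cells of a type and less RNA per cell cannot be told apart.

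Several libraries stood apart in ways that did not follow the surgery. Totals were 26407125 to 32723817 counts. Genes encoded in mitochondrial DNA (13) made up 36.67% to 68.97% of them, most in sham 2 and NX 3, with means of 49.94% ± 16.91 (SD, n = 3) in sham and 54.13% ± 11.12 in NX. For the total, this share and the number of genes detected (16848 to 18229), 2-sided exact permutation tests gave an adjusted p of 1, and the smallest p that 3 against 3 can give is 0.1. Airway secretory genes, which heart cells do not make, were high in sham 3, NX 2 and NX 3 and summed to 5.96, 0.635 and 316 CPM in sham and 0.697, 421 and 198 CPM in NX. Interferon-gamma target genes were highest in sham 1, and the atrial markers were low in sham 2. Pearson correlations of log2 CPM were 0.9479 to 0.9667 for 6 pairs of libraries of the same group and 0.9509 to 0.9709 for 9 pairs of different groups. The first principal component (32.4% of the variance) was led by airway genes such as Scgb1a1, and none of the 5 components placed all 3 NX libraries on 1 side of all 3 sham libraries.

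Across all 14412 tested genes, 0 differed between NX and sham at an adjusted p of 0.05 (edgeR quasi-likelihood test, Benjamini-Hochberg, smallest adjusted p = 0.994, 0% called). DESeq2 on the same counts called 1 gene, Niban3. At an unadjusted p under 0.05 edgeR gave 524 genes (3.64%), 236 higher in NX (1.64%) and 288 lower (2%). The median log2 fold change over all tested genes was 0.02, and 52.9% of them were positive. The CPM ranges of the 2 groups did not overlap for 1559 genes (10.8%), with all 3 NX libraries above all 3 sham libraries for 706 (4.9%) and below them for 853 (5.92%). For genes with at least 10 CPM (7037), log2 fold changes had a median standard error of 0.189, so that a 1.3-fold difference made 2 standard errors before any adjustment. Every gene named from here on had an edgeR adjusted p of 0.994 or more, and "higher" and "lower" describe the values in these libraries.

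**Figure D1:**
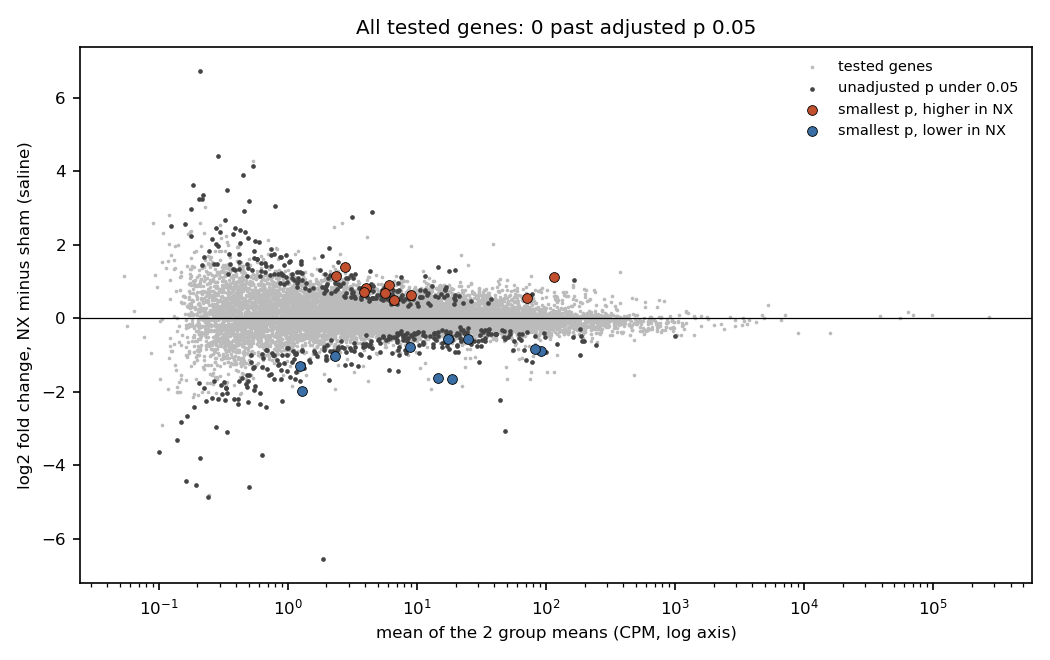
Log2 fold change of NX saline over sham saline (vertical axis) against the mean level in CPM (log axis) for the 14412 tested genes, with the 524 at an unadjusted p under 0.05 in dark grey and the 20 named genes in colour. The cloud is centred near 0 (median 0.02), it widens toward low levels, and 0 genes passed an adjusted p of 0.05.

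The genes with the smallest p-values among those lower in NX included transcriptional regulators, a co-chaperone and a lipid enzyme. They were taken by a fixed rule, 10 in each direction among 11605 genes at a mean of 1 CPM or more, and none of the 20 had overlapping groups, which 10.8% of all genes share. Nr4a3 encodes an orphan nuclear receptor of the immediate early class, and it was at 17.9, 24.4 and 24.0 CPM in sham and 4.94, 8.94 and 7.47 CPM in NX. Its lowest sham value was above its highest NX value, and its log2 fold change was −1.63 (SE 0.37). Nfil3, a bZIP repressor that binds the D-box sites of clock-controlled genes, was at 25.1, 26.2 and 34.7 CPM in sham and 9.35, 7.68 and 10.4 CPM in NX. The 3 NX libraries were each below 11 CPM and the sham libraries above 25, a log2 fold change of −1.65 (SE 0.40).

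The carboxylesterase gene Ces1d, which encodes a lipid hydrolase and lies in a cluster of similar genes among which reads may be divided, showed little spread inside either group. It was at 125, 122 and 113 CPM in sham and 62.6, 60.1 and 69.4 CPM in NX, a log2 fold change of −0.91 (SE 0.22). Impact, which restrains the amino acid sensor kinase GCN2, was at 21.9, 20.4 and 20.2 CPM in sham and 13.6, 13.5 and 14.8 CPM in NX (−0.58, SE 0.14 on the log2 scale). Zkscan3, a zinc finger repressor of autophagy and lysosome genes, was at 27.0, 33.5 and 29.2 CPM in sham and 18.2, 22.1 and 19.6 CPM in NX (−0.58, SE 0.14). In Ces1d and Impact the gap between the groups exceeded the range inside either of them, and in Zkscan3 it was smaller than the range of the sham libraries.

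Less abundant members of the lower set were Pde11a, a phosphodiesterase of cAMP and cGMP, and a pair of genes best known from other organs. Pde11a was at 2.07, 2.25 and 1.83 CPM in sham and 0.666, 0.287 and 0.596 CPM in NX, a log2 fold change of −1.99 (SE 0.49). Thyroglobulin, Tg, was at 1.48, 1.91 and 1.92 CPM in sham and 0.634, 0.690 and 0.812 CPM in NX (−1.31, SE 0.34), and the lens crystallin gene Cryba4 at 3.25, 3.69 and 2.48 CPM in sham and 1.49, 1.58 and 1.52 CPM in NX (−1.03, SE 0.26). The remaining lower genes were the co-chaperone gene Stip1, given with the chaperones below, and Ptges3-ps (−0.78, SE 0.18). Ptges3-ps is by its name a pseudogene of Ptges3, so reads of the co-chaperone gene may be counted there and its value is uncertain.

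Genes with the smallest p among those higher in NX included a cell cycle kinase, a transporter and regulators of cell death, glycogen and splicing. Cdk2, the cyclin-dependent kinase of S phase entry, was at 4.68, 3.93 and 4.02 CPM in sham and 6.34, 7.50 and 9.97 CPM in NX. The NX value was lowest in NX 1 and highest in NX 3, and the log2 fold change was 0.91 (SE 0.25). Slc6a6, the taurine transporter of heart muscle, was at 93.5, 69.0 and 57.2 CPM in sham and 117, 154 and 204 CPM in NX, a log2 fold change of 1.11 (SE 0.32). Taurine is among the most abundant free amino acids of cardiomyocytes.

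Bok, a pro-apoptotic member of the BCL2 family, was at 1.69, 1.56 and 1.27 CPM in sham and 3.04, 3.05 and 5.96 CPM in NX (1.40, SE 0.41). Phkg2, a catalytic subunit of the phosphorylase kinase that activates glycogen breakdown, was at 5.63, 5.66 and 5.17 CPM in sham and 7.61, 7.82 and 7.85 CPM in NX, with ranges of under 1 CPM inside each group and a log2 fold change of 0.50 (SE 0.15). The splicing factor gene Srsf5 was at 63.4, 60.7 and 50.3 CPM in sham and 88.0, 77.8 and 89.9 CPM in NX (0.55, SE 0.17). The ubiquitin ligase gene Hectd2 was at 1.87, 1.44 and 1.05 CPM in sham and 2.12, 3.02 and 4.66 CPM in NX (1.15, SE 0.33), with NX 1 only slightly above sham 1. The other 4 were Fam210b, of a mitochondrial membrane protein (0.68, SE 0.20), the exocyst subunit gene Exoc1 (0.63, SE 0.19), the solute carrier gene Slc35e4 (0.82, SE 0.25) and the chromatin reader gene Phf13 (0.70, SE 0.21).

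**Figure D2:**
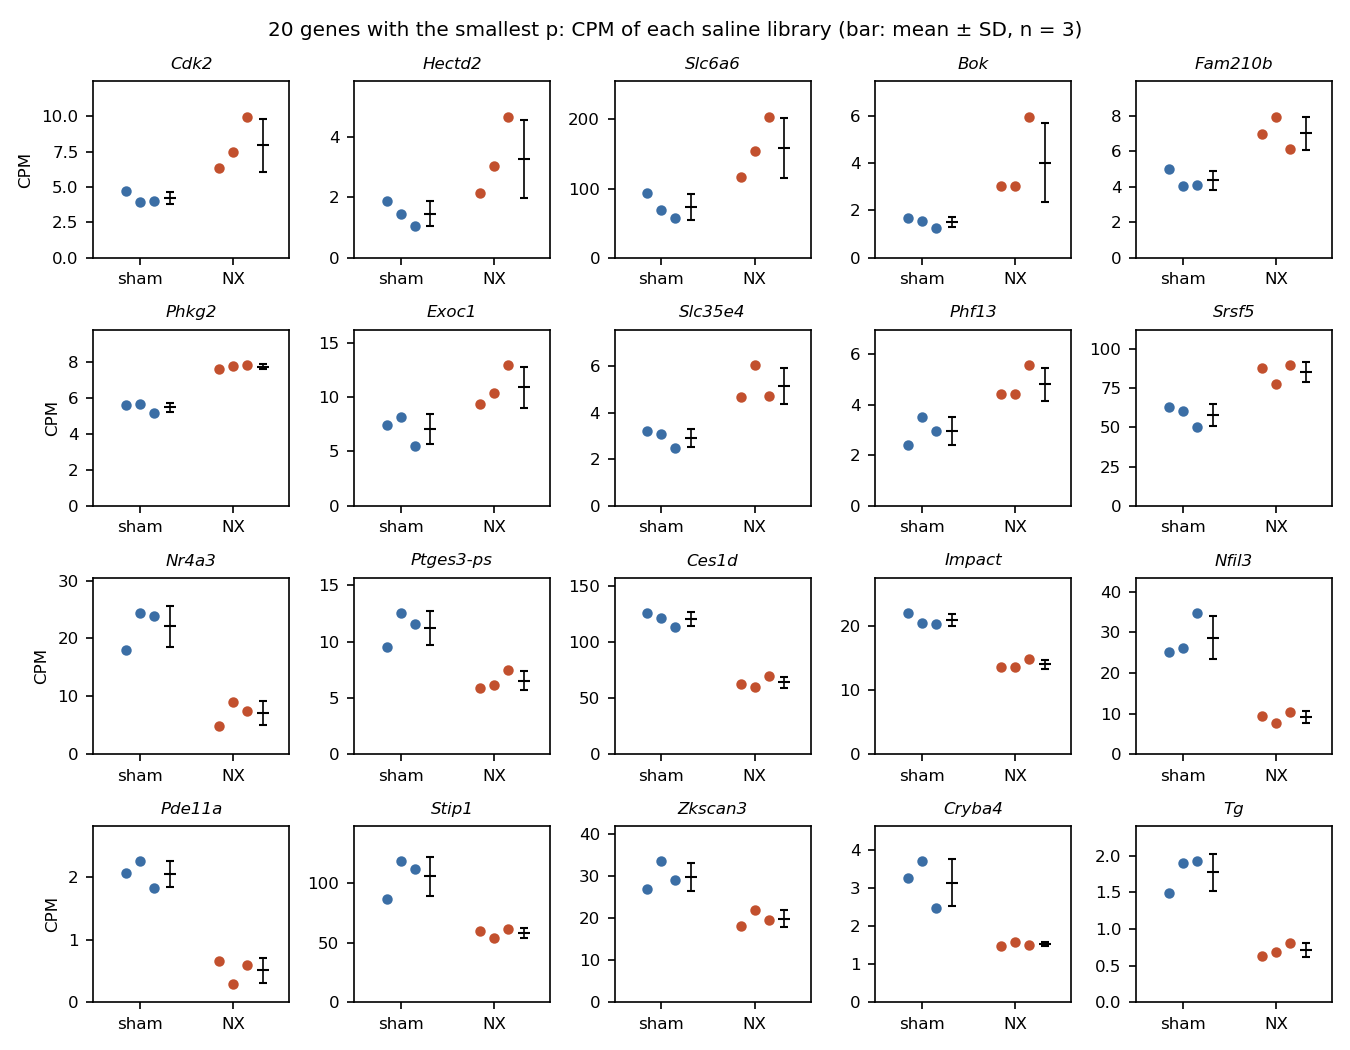
CPM of each saline library for the 20 genes with the smallest p, 10 higher in NX in the upper rows and 10 lower in NX in the lower rows; points are libraries and bars the mean ± SD of 3. No panel has overlapping groups, and the spread is small in both groups for Phkg2, Ces1d and Impact and wide in NX for Bok, Hectd2 and Slc6a6.

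Gene lists of 40 pathways and 16 cell types were then described by their members, 983 distinct genes tested. The lists and members were chosen with earlier results of these data known. A list's count beside the share of all genes is therefore a description and not a test. Of these 983, 43 had an unadjusted edgeR p under 0.05, 13 higher and 30 lower. Over all 14412 tested genes 524 had (3.64%), 236 higher (1.64%) and 288 lower (2%). Groups did not overlap for 108 of the 983 (11%, against 10.8% of all tested genes). In that share the listed genes as a whole were thus near the background. By unadjusted p they leaned further toward lower than all tested genes did. A median printed for a list is that of its tested members' log2 fold changes and stands against 0.02 over all genes.

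Genes listed for the HSP70 and HSP90 chaperone systems, which fold newly made and stress-damaged proteins, were lower in NX. The list also holds the mitochondrial chaperonin genes Hspd1 and Hspe1 and the heat shock factor genes Hsf1 and Hsf2. Of 23 tested members 0 were positive, 9 had an unadjusted p under 0.05 (3.64% of all genes did) and 7 had all NX libraries below all sham libraries (5.92% of all genes did), with a median of −0.42. Many of these genes carry heat shock elements, the sites of the factor HSF1, in their promoters. The inverted repeats GAANNTTC and TTCNNGAA, each its own reverse complement and so present on both strands, were searched in the 250 bases before each start site in RefSeq (GRCm38.p6), where 19 of the 23 members had an entry. Either repeat was found in 9 of 19 members (47.4%) and in 14.5% of 27025 genes. Hspd1 and Hspe1 are both among these 9, and so are Hspa1a and Hspa1b, whose 250 bases are nearly identical. Stip1 and Bag3, the members with the smallest p, had no match. Hsp90aa1, Hsp90ab1 and Hspa8 had no entry. A match is a description of the letters and not evidence of binding. The 250 bases are shown for 3 members with an unadjusted edgeR p under 0.05 and a match, with the matching letters in capitals. Hspa1a also met this rule and is left out. The bases show where the repeat lies in genes described next.
Hsph1 (chr5:149636337-149636586, minus strand): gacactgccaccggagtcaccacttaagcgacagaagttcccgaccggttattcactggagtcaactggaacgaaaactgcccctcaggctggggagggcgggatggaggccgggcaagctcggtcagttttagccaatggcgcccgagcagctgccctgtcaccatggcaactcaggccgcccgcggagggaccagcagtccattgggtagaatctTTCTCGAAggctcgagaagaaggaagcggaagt
Dnaja1 (chr4:40722218-40722467, plus strand): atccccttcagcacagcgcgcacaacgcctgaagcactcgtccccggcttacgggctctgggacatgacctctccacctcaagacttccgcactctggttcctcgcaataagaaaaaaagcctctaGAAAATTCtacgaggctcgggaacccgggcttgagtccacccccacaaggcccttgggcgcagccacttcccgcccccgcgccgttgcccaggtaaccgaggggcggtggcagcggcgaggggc
Hspa1b (chr17:34959239-34959488, minus strand): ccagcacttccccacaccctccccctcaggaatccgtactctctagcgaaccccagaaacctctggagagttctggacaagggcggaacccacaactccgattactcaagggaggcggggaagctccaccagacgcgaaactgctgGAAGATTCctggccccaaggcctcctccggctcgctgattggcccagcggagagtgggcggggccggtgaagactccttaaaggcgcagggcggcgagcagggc

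Among the members of this list, the constitutive HSP90 gene Hsp90ab1 was at 1021, 1296 and 1177 CPM in sham and 728, 864 and 913 CPM in NX, with no overlap and a log2 fold change of −0.48 (SE 0.16). Stip1, the adaptor that hands clients from HSP70 to HSP90, was at 86.8, 118 and 112 CPM in sham and 59.7, 53.6 and 61.8 CPM in NX (−0.85, SE 0.21). Bag3, a co-chaperone that keeps the sarcomere's Z-disc in repair, was at 219, 219 and 254 CPM in sham and 128, 162 and 162 CPM in NX (−0.62, SE 0.20). In all 3 genes each NX library lay below each sham library. The constitutive HSP70 gene Hspa8 was at 945, 1632 and 1312 CPM in sham and 1037, 846 and 919.9 CPM in NX, where NX 1 lay above sham 1 (−0.47, SE 0.26).

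The stress-inducible HSP70 and HSP90 genes varied widely, and they separated the sham libraries from each other. They and the 2 genes after them are named with their values known. Hspa1b, an inducible HSP70 gene, was at 4.22, 130.4 and 126 CPM in sham and 3.42, 7.82 and 20.1 CPM in NX, so that sham 1 resembled the NX libraries and only sham 2 and sham 3 were high (−3.07, SE 1.14). Its near-identical neighbour Hspa1a was at 10.2, 98.5 and 112 CPM in sham and 4.28, 14.9 and 27.9 CPM in NX (−2.23, SE 0.86), and reads of these 2 genes may be divided between them. The inducible HSP90 gene Hsp90aa1 was at 112, 371 and 251 CPM in sham and 123, 104 and 141 CPM in NX (−0.99, SE 0.43), again with sham 1 inside the NX range.

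Hsph1, an HSP110 nucleotide exchange factor, was at 51.7, 137 and 102 CPM in sham and 37.3, 43.1 and 51.5 CPM in NX (−1.14, SE 0.37), with sham 1 barely above NX 3. Dnaja1, an HSP40 partner of HSP70, was at 56.5, 157 and 116 CPM in sham and 39.5, 48.0 and 56.6 CPM in NX (−1.19, SE 0.44), with sham 1 and NX 3 at nearly the same level. The mean of the list's centred log2 CPM, its score, was −0.23, 0.63 and 0.49 in sham and −0.44, −0.29 and −0.17 in NX, so that sham 1 lay inside the NX range. The list's median was −0.65 without sham 1, −0.32 without sham 2 and −0.26 without sham 2 and NX 3, the libraries richest in mitochondrial RNA.

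The endoplasmic reticulum list and the small heat shock proteins were less uniform. In the endoplasmic reticulum, 1 of 21 unfolded protein response genes was positive, with a median of −0.26 that was −0.13 without sham 2 and −0.42 without NX 3. Hspa5, the lumenal HSP70, was at 408, 635 and 505 CPM in sham and 401, 304 and 424 CPM in NX (−0.46, SE 0.21), and Manf, a secreted stress-induced factor, at 28.8, 46.0 and 43.1 CPM in sham and 23.2, 16.8 and 30.1 CPM in NX (−0.75, SE 0.30). Both were highest in sham 2. The small heat shock proteins, which hold unfolded proteins without using ATP, had a median of −0.18 (6 of 7 negative), which was −0.01 without sham 3, −0.03 without NX 3, −0.10 without NX 2 and −0.32 without NX 1. Hspb1 was at 174, 449 and 295 CPM in sham and 148, 189 and 251 CPM in NX (−0.65, SE 0.32), with NX 2 and NX 3 above sham 1.

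Genes of protein breakdown by ubiquitin, the tag for degradation, were mixed. Ubb, a polyubiquitin gene, was at 232, 253 and 247 CPM in sham and 174, 290.3 and 238 CPM in NX with overlapping groups. Foxo4, a transcription factor of the atrophy program, was at 40.2, 39.3 and 33.7 CPM in sham and 27.6, 31.5 and 30.5 CPM in NX (−0.34, SE 0.12). Over the 20 tested genes of ubiquitin ligases and atrophy the median was −0.04. The autophagy and lysosome list, which also holds Zkscan3, had a median of 0.00 with 12 of 24 positive. The lysosomal protease gene Ctsd was at 818, 576 and 849 CPM in sham and 910.1, 778 and 622 CPM in NX, with overlapping groups.

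Genes of cardiac hypertrophy, the fetal program that a loaded ventricle re-expresses, were mixed. Of 18 tested members 6 were positive, with a median of −0.09, and 2 had NX below sham without overlap (5.92% of all genes did). The median was −0.39 without NX 1 and 0.10 without NX 3. Acta1, the skeletal alpha-actin that a stressed heart re-expresses, was at 129.5, 75.0 and 123 CPM in sham and 298, 299 and 71.7 CPM in NX (1.03, SE 0.41), above every sham library in NX 1 and NX 2 but below every sham library in NX 3. Nppa, the atrial natriuretic peptide gene, was at 799, 24.7 and 1332 CPM in sham and 352, 228 and 161 CPM in NX (−1.54, SE 1.08), and its sham values spanned more than the NX values.

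A pair of genes of the disc and the matrix was lower with no overlap. Xirp1, a repair protein of intercalated discs and Z-discs, was at 319, 257 and 341 CPM in sham and 181, 157 and 209.9 CPM in NX (−0.74, SE 0.27). Ccn2, the matricellular connective tissue growth factor, was at 103, 120.3 and 171 CPM in sham and 40.9, 90.2 and 79.0 CPM in NX (−0.91, SE 0.36), lowest in NX 1. Sarcomere genes had a median of −0.11 over 20 members, with 0 above and 0 below without overlap, and it was −0.03 without sham 1, −0.18 without sham 2, −0.23 without NX 1 and 0.01 without NX 3. The regulatory light chain gene Myl2 was at 4099.8, 4358 and 5430.1 CPM in sham and 6220.2, 4521 and 3999.7 CPM in NX.

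Excitation and calcium genes leaned lower. The calcium pump gene Atp2a2 (SERCA2), which refills the sarcoplasmic reticulum, was at 12061, 9128 and 9570.4 CPM in sham and 8035, 7709.8 and 7478 CPM in NX, with no overlap and a log2 fold change of −0.41 (SE 0.29). The release channel gene Ryr2 was at 1344, 1260.0 and 984 CPM in sham and 957, 872 and 800.4 CPM in NX, also without overlap (−0.45, SE 0.32). The pump's inhibitor phospholamban, Pln, was at 3679.8, 3233 and 3749.8 CPM in sham and 4098, 3019 and 3009 CPM in NX with overlapping groups. Over the 20 calcium genes 3 were below without overlap (5.92% of all genes were), with a median of −0.10 that was −0.06 without sham 1, −0.18 without sham 2, −0.36 without NX 1, −0.04 without NX 2 and 0.03 without NX 3. The atrial inhibitor sarcolipin, Sln, followed the atrial markers at 30.9, 1.27 and 72.8 CPM in sham and 11.7, 8.51 and 9.21 CPM in NX (−1.84, SE 1.15).

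Of 22 tested genes of sodium, potassium and gap junction channels 4 were positive and 4 were below without overlap (5.92% of all genes were), with a median of −0.38 (−0.17 without sham 1). Kcnj3, a subunit of the acetylcholine-gated potassium channel that is richest in atria, was at 95.7, 46.5 and 71.9 CPM in sham and 45.3, 32.9 and 36.5 CPM in NX (−0.90, SE 0.42). The potassium channel subunit gene Kcne1 was at 2.20, 0.981 and 1.33 CPM in sham and 0.666, 1.18 and 0.433 CPM in NX (−0.97, SE 0.41), and NX 2 was inside the sham range.

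Atrial markers were lower in NX, 12 of 12 with a median of −1.12, and 1 of them had groups apart (10.8% of all genes did). Their score was 1.14, −1.99 and 1.50 in sham and −0.07, −0.31 and −0.27 in NX. The 3 NX libraries lay together, between sham 1 and sham 3 on the high side and sham 2 on the low side. The median was −0.46 without sham 3. Nppa, Sln and Kcnj3, given above with other lists, are themselves members of this one. Nppa and Sln were lowest in sham 2, as the score was, whereas Kcnj3 in sham 2 was above all NX libraries. The part of atrial cells in those values was not tested.

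Genes of energy metabolism were mostly slightly lower in NX. The breakdown of branched-chain amino acids, by which the heart uses leucine, isoleucine and valine, had 1 of 20 members positive, 5 below without overlap (against 5.92% of all genes) and a median of −0.24. Bcat2, the mitochondrial transaminase of its opening step, was at 82.5, 66.3 and 77.7 CPM in sham and 62.2, 52.1 and 52.6 CPM in NX (−0.44, SE 0.17). Ivd, the leucine-branch dehydrogenase, was at 363, 276 and 275 CPM in sham and 258, 199.9 and 218 CPM in NX (−0.43, SE 0.26). Mmut, the mutase that delivers the carbon of valine and isoleucine to succinyl-CoA, was at 94.5, 87.9 and 79.4 CPM in sham and 74.4, 66.8 and 58.7 CPM in NX (−0.39, SE 0.19). In these 3 genes the groups did not overlap, and NX 1 was the NX library nearest to the lowest sham value. The list's score was 0.23, −0.02 and 0.16 in sham and 0.10, −0.20 and −0.27 in NX, with NX 1 inside the sham range, and the median was −0.37 without NX 1 and −0.14 without NX 3. It was −0.01 without the 3 libraries that held airway genes, a fit that leaves NX 1 alone against sham 1 and sham 2.

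Fatty acid oxidation, the main fuel path of the adult heart, had 4 of 25 members positive and 7 below without overlap (5.92% of all genes were), with a median of −0.16 (−0.08 without NX 3). Hadh, a dehydrogenase of the beta-oxidation spiral, was at 485, 416 and 446 CPM in sham and 373, 335 and 324 CPM in NX (−0.39, SE 0.19). Cpt1a, the isoform of the mitochondrial entry enzyme that prevails in liver, ran the other way at 25.5, 37.7 and 29.9 CPM in sham and 33.9, 47.3 and 52.2 CPM in NX (0.52, SE 0.20), with NX 1 inside the sham range. The fatty acid binding protein gene Fabp3 was at 1656, 1643 and 1967 CPM in sham and 2163, 1858 and 1405 CPM in NX, so that both the highest and the lowest library belonged to NX.

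The tricarboxylic acid cycle had 2 of 20 members positive and a median of −0.16. Ogdh, a subunit of the oxoglutarate dehydrogenase complex, was at 1893, 1472 and 1532 CPM in sham and 1187, 1242 and 1143 CPM in NX, without overlap (−0.46, SE 0.24). The median of this list was −0.11 without sham 3, −0.27 without NX 1, −0.05 without NX 3 and 0.12 without the 3 libraries with airway genes. Hexokinase 2, Hk2, which traps glucose in the cell, was at 297, 200.3 and 189 CPM in sham and 189, 144 and 140.1 CPM in NX (−0.54, SE 0.32), with NX 1 level with sham 3. Glycolysis as a list was at −0.08 (5 of 24 positive) and the nuclear respiratory chain genes were at −0.09 (6 of 23). Single libraries turned both signs: the glycolysis median was −0.22 without NX 1, −0.17 without sham 2, 0.02 without sham 3 and 0.06 without NX 3, and the respiratory chain median −0.16 without NX 1, −0.15 without sham 2, 0.04 without sham 3 and 0.01 without NX 3.

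Mitochondrially encoded subunits had a median of 0.01 over 13 genes, and the libraries differed more within the groups than between them. COX1, the catalytic subunit of complex IV, was at 137298, 482875 and 181150.0 CPM in sham and 231511, 171623 and 420961 CPM in NX. The list's median was 0.79 without sham 2 and −0.38 without NX 3. Pink1, a kinase that marks damaged mitochondria, was at 593, 459 and 497 CPM in sham and 443, 382 and 401 CPM in NX without overlap (−0.34, SE 0.22). The coactivator gene Ppargc1a, which drives mitochondrial biogenesis, was at 72.4, 199 and 115 CPM in sham and 68.5, 104 and 87.6 CPM in NX and overlapped.

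Genes that fatty acids and fasting induce through PPAR receptors differed between libraries of the same group. Their score was −0.39, 0.20 and 0.13 in sham and −0.39, 0.31 and 0.14 in NX, lowest in sham 1 and NX 1. Ucp3, a mitochondrial carrier of this class, was at 17.4, 42.4 and 27.2 CPM in sham and 24.6, 66.5 and 89.3 CPM in NX (1.05, SE 0.54). Pdk4, which shuts pyruvate out of oxidation, was at 299, 1025 and 748 CPM in sham and 161, 1102 and 1603 CPM in NX. For both genes NX 2 and NX 3 were above all sham libraries, while NX 1 was inside the sham range for Ucp3 and below it for Pdk4. NX 2 and NX 3 were also the libraries richest in endothelial and adipocyte transcripts, given below, whose part in these values was not tested.

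Cell cycle genes, which adult cardiomyocytes hold low, were higher in NX. Of 38 tested members 31 were positive and 13 lay above without overlap (against 4.9% of all genes), 1 below, with a median of 0.49. Besides Cdk2, given above, the G1 cyclin gene Ccnd1 was at 52.7, 38.1 and 44.7 CPM in sham and 67.7, 62.8 and 96.5 CPM in NX (0.74, SE 0.35). Kif11, a kinesin of the mitotic spindle, was at 0.947, 0.750 and 0.371 CPM in sham and 1.27, 1.47 and 2.27 CPM in NX (1.26, SE 0.45), highest in NX 3. Ccnd2, the cyclin with the highest CPM in the list, was at 91.8, 58.4 and 64.3 CPM in sham and 79.3, 59.8 and 60.9 CPM in NX, with overlapping groups.

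The cell cycle score was −0.25, −0.19 and −0.16 in sham and 0.00, 0.45 and 0.14 in NX, without overlap, and NX 2 was the highest. The score of the adrenergic list, given below, was also without overlap, and lower in NX. Without NX 2 the cell cycle median was 0.17, and without the 3 libraries with airway genes it was 0.23. Markers of some non-myocyte cells were also higher in NX 2 and NX 3. The fibroblast score was −0.73, −0.11 and 0.10 in sham and −0.15, 0.43 and 0.46 in NX and the endothelial score 0.02, −0.16 and −0.40 and −0.83, 0.41 and 0.96, both with NX 1 inside or below the sham range, where its cell cycle score was above it. The part of these cells in the cell cycle result was not tested.

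Checkpoint, damage and telomere genes had medians near 0. The p53 targets had a median of 0.03 over 24 genes and the DNA damage response genes of −0.02 over 23. The p53 median was 0.19 without NX 1, and the DNA damage median ran from −0.07 without NX 2 to 0.09 without sham 1. Bax, a p53 target that permeabilizes mitochondria, was at 7.45, 6.93 and 7.15 CPM in sham and 8.75, 9.60 and 11.1 CPM in NX without overlap (0.45, SE 0.24). Cdkn2a, which encodes the senescence brake p16 and the p53 regulator p19Arf, had 1, 1 and 1 counts in sham and 9, 6 and 14 in NX. That is 0.0256, 0.0577 and 0.0310 CPM in sham and 0.285, 0.172 and 0.758 CPM in NX, near the lowest level that these libraries can show. Senescence genes as a list were at 0.20 (0.05 without sham 1, 0.35 without sham 2, and 0.13 without either NX 2 or NX 3). The 7 shelterin genes, which cap telomeres, had a median of 0.07, which ran from −0.05 without NX 3 to 0.17 without sham 2. Terf2ip was the only 1 of them without overlap, as were 10.8% of all genes. It was at 10.5, 9.87 and 10.3 CPM in sham and 9.32, 8.82 and 9.69 CPM in NX (−0.15, SE 0.12).

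Cell death genes were positive in 21 of 25 cases with a median of 0.36, and 2 lay above without overlap (4.9% of all genes did). The median was 0.19 without NX 2, 0.20 without sham 2, 0.22 without NX 3 and −0.07 without the 3 libraries with airway genes. Mcl1, a BCL2-family protein that keeps cardiomyocytes alive, was at 154, 148 and 149 CPM in sham and 134, 163 and 168 CPM in NX, and Bcl2 at 6.27, 4.91 and 3.81 CPM in sham and 7.45, 6.07 and 8.45 CPM in NX. NX 2 was inside the sham range for Bcl2.

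**Figure D3:**
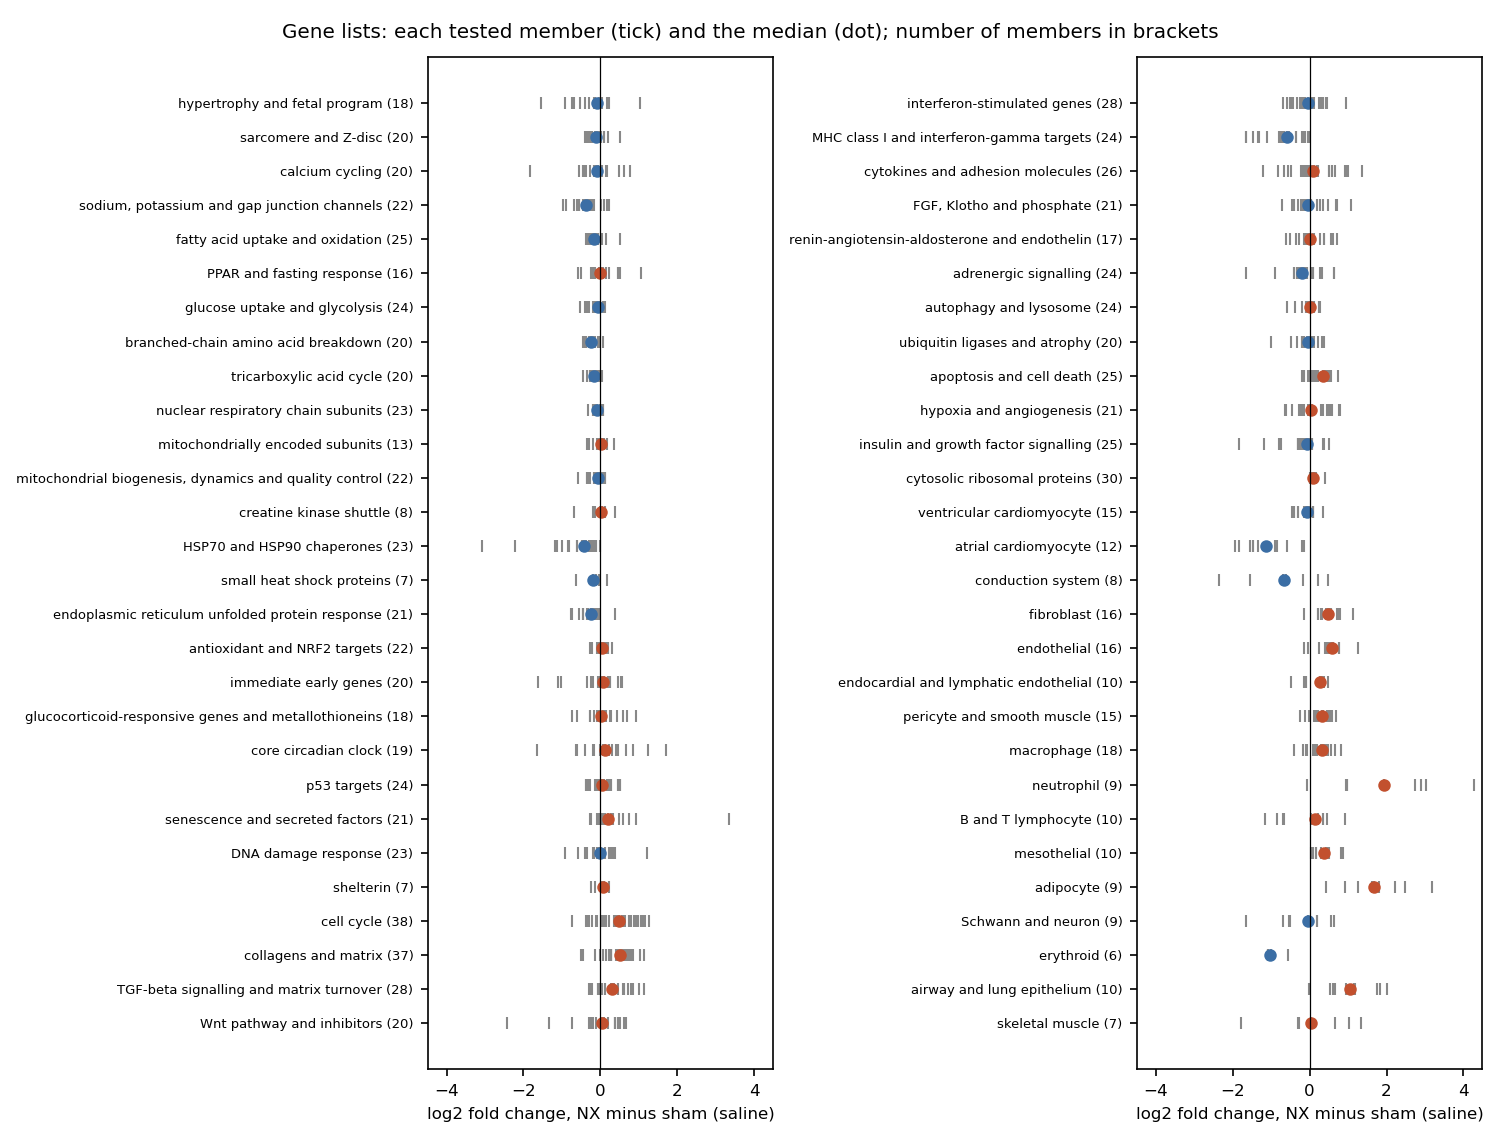
Log2 fold change of NX saline over sham saline (horizontal axes) for every tested member of the 56 gene lists (ticks), with the list median as a dot, red above 0 and blue below; the number of tested members is in brackets. Chaperones (median −0.42) and branched-chain amino acid breakdown (−0.24) lie left of 0, cell cycle (0.49) and matrix (0.50) lie right of it, and the neutrophil (1.93) and adipocyte (1.68) medians lie farthest right.

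Matrix genes were higher in NX. Of 37 members 33 were positive and 10 lay above without overlap (4.9% of all genes did), with a median of 0.50. Col8a1, a short-chain collagen of injured and remodelled tissue, was at 6.63, 5.14 and 9.69 CPM in sham and 14.3, 19.9 and 13.4 CPM in NX (1.14, SE 0.50). Fbn1, the fibrillin of elastic microfibrils, was at 24.1, 35.3 and 39.6 CPM in sham and 77.5, 54.9 and 69.5 CPM in NX (1.03, SE 0.49), with NX 1 the highest library. Col4a1 of basement membranes was at 231, 257 and 207 CPM in sham and 229, 313 and 462 CPM in NX and Dcn, the small proteoglycan decorin, at 180.2, 256 and 311 CPM in sham and 196, 335 and 347 CPM in NX, both with overlapping groups.

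Fibroblast markers moved with the matrix genes, 15 of 16 positive with a median of 0.48. Cd248, a surface protein of stromal and perivascular cells, was at 4.30, 4.39 and 5.66 CPM in sham and 10.8, 11.0 and 9.32 CPM in NX without overlap (1.12, SE 0.43). Gsn, an actin-severing protein abundant in cardiac fibroblasts, was at 463, 679 and 799 CPM in sham and 538, 924 and 930.3 CPM in NX. The matrix score was −0.70, −0.04 and 0.07 in sham and −0.11, 0.37 and 0.41 in NX, so that sham 1 was the lowest and NX 1 lay inside the sham range, as in the fibroblast score. Without sham 1 the medians were 0.30 for matrix and 0.27 for fibroblasts, and without the 3 libraries with airway genes 0.22 and 0.21. Without NX 3 the fibroblast median was 0.32. The part of fibroblast number in the matrix result was not tested.

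Genes of TGF-beta signalling and matrix turnover had a median of 0.30 over 28 members, 4 above without overlap (4.9% of all genes were), and it was 0.11 without sham 1, 0.18 without NX 3 and 0.06 without the 3 libraries with airway genes. Smad6, an inhibitor of BMP signalling that endothelial cells express, was at 14.3, 10.6 and 11.4 CPM in sham and 14.5, 20.9 and 30.3 CPM in NX (0.85, SE 0.33), with NX 1 just above sham 1. Timp3, a protease inhibitor bound to the matrix, was at 118, 249.6 and 177 CPM in sham and 106, 398 and 394 CPM in NX. Its NX 1 value was the lowest and its NX 2 and NX 3 values the highest of the 6 libraries.

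Markers of other non-myocyte cells followed single libraries. Endothelial markers were positive in 14 of 16 cases with a median of 0.58, which was 0.11 without NX 3, 0.88 without NX 1 and −0.72 without the 3 libraries with airway genes. Fabp4, a fatty acid binding protein of capillary endothelium and fat, was at 206, 241 and 222 CPM in sham and 167, 747 and 684 CPM in NX (1.26, SE 0.64). Adipoq, the adipocyte hormone gene, had 1, 0 and 8 counts in sham and 2, 74 and 10 in NX, or 0.0256, 0 and 0.248 CPM in sham and 0.0634, 2.13 and 0.542 CPM in NX, so that only NX 2 carried it at more than 1 CPM. The adipocyte list had a median of 1.68 that was 0.92 without NX 2, 4.23 without sham 3 and 0.52 without the libraries with airway genes.

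Pericyte and smooth muscle markers had a median of 0.32, which was 0.53 without sham 1, 0.57 without NX 1 and 0.14 without NX 3. Mesothelial markers, of the heart's outer lining, were at 0.36 with 10 of 10 positive, and 0.14 without NX 3. The keratin gene Krt19 of that layer was at 4.61, 3.23 and 5.57 CPM in sham and 6.91, 5.75 and 11.9 CPM in NX (0.86, SE 0.33). Erythroid genes, a measure of blood in the preparation, summed to 34.1, 748 and 275 CPM in sham and 179, 91.3 and 253 CPM in NX.

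Neutrophil genes were low in all libraries, and as a list they were higher in NX 1 and NX 2. The alarmin gene S100a8 was at 0.768, 0.404 and 1.24 CPM in sham and 6.78, 7.53 and 2.22 CPM in NX (2.74, SE 1.01), and its partner S100a9 at 0.256, 0.981 and 2.04 CPM in sham and 10.5, 11.2 and 2.27 CPM in NX (2.88, SE 1.03). NX 1 and NX 2 were high while NX 3 was nearest to sham 3. Over 9 tested members 8 were positive with a median of 1.93, and the receptor gene Csf3r was at 3.76, 4.33 and 1.67 CPM in sham and 5.10, 0.747 and 3.47 CPM in NX. The summed level of the neutrophil list was 7.11, 8.08 and 5.01 CPM in sham and 28.4, 26.1 and 9.37 CPM in NX. Its score was −0.42, −0.33 and −1.57 in sham and 1.63, 1.28 and −0.59 in NX, with NX 3 inside the sham range. Macrophage markers had a median of 0.32 that was 0.02 without sham 1, 0.58 without sham 3 and 0.17 without NX 2.

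Interferon-gamma targets and antigen presentation genes were led by sham 1. All 24 of 24 members were negative with a median of −0.59, 0 had groups apart, and without sham 1 the median was 0.73, of the opposite sign. It was −1.39 without NX 3, −0.91 without sham 2, −0.36 without NX 2, −0.29 without NX 1 and −1.09 without sham 3. Iigp1, an interferon-inducible GTPase of cell-autonomous defence, was at 301, 27.8 and 15.1 CPM in sham and 21.4, 19.4 and 69.2 CPM in NX (−1.65, SE 1.15). Beta-2 microglobulin, B2m, the light chain of MHC class I, was at 384, 166 and 133 CPM in sham and 120.2, 156 and 396 CPM in NX. In both genes sham 1 and NX 3 stood above the other 4 libraries, and the score showed the same at 1.79, −0.23 and −1.16 in sham and −0.77, −0.56 and 0.93 in NX. Type I interferon genes had a median of −0.04, which ran from −0.55 without NX 3 to 0.75 without sham 1.

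**Figure D4:**
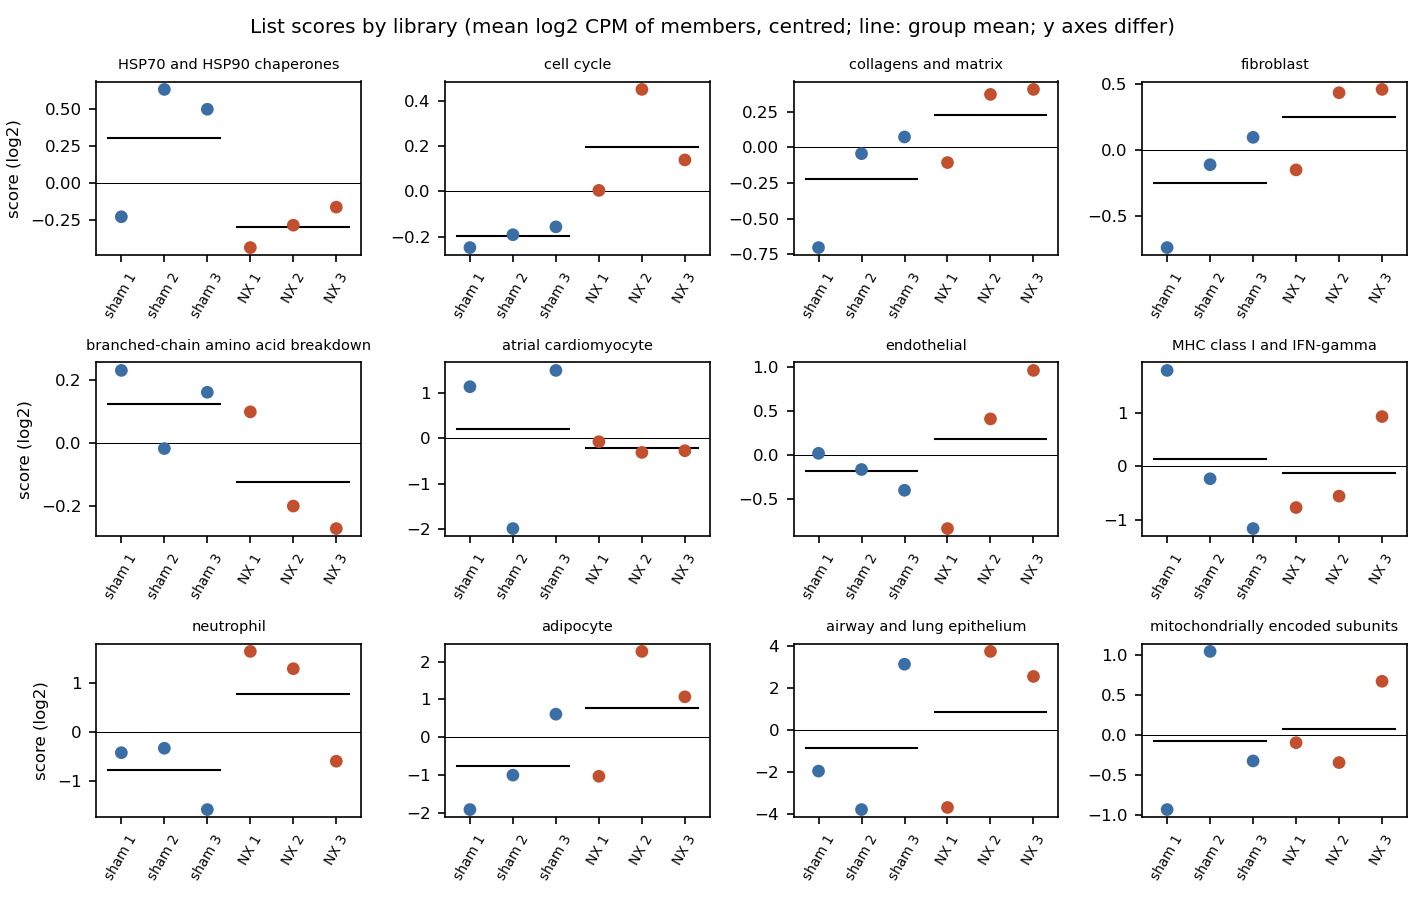
List scores (mean log2 CPM of the tested members, centred on the 6 saline libraries; vertical axes differ between panels) for each sham saline and NX saline library, with the group mean as a line. The cell cycle score is above the sham range in all 3 NX libraries, whereas sham 1 lies inside the NX range for chaperones, NX 1 inside the sham range for matrix, and sham 1 sets the mean of the interferon-gamma list.

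Clock genes, which time daily rhythms in every tissue, had 12 of 19 members positive and a median of 0.11, which ran from 0.02 without NX 2 to 0.30 without NX 1. Tef, an activator that shares the D-box site of Nfil3, was at 73.9, 54.3 and 68.6 CPM in sham and 71.2, 134 and 56.3 CPM in NX and Nr1d2, a nuclear receptor that represses clock genes, at 35.6, 63.2 and 48.4 CPM in sham and 57.1, 95.3 and 49.4 CPM in NX, with NX 2 the highest library for both. The E-box CACGTG, a palindrome, was found in the 250 bases before the start in 5 of 16 matched clock genes (31.2%), against 6.86% of 27025 genes, and the D-box form TTATGTAA in 1 of 16 (6.25%), against 0.977%.

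Immediate early genes, to which Nr4a3 belongs, had a median of 0.07 with 12 of 20 positive, and it ran from −0.18 without NX 3 to 0.35 without NX 1. Jun was at 271, 316 and 203 CPM in sham and 128, 364 and 341 CPM in NX and Dusp1, a phosphatase of MAP kinases, at 241, 254 and 206 CPM in sham and 160.4, 247 and 326 CPM in NX. NX 1 was the lowest library in each, whereas for Nr4a3 all 3 NX libraries were low. Glucocorticoid-responsive genes had a median of 0.01 that ran from −0.29 without NX 2 to 0.35 without NX 1, and Sgk1, a kinase induced by steroid hormones, was at 113, 87.2 and 83.0 CPM in sham and 58.9, 154 and 214 CPM in NX.

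Hormone and phosphate pathways known from uremia held few genes apart. In the FGF, Klotho and phosphate list 2 of 21 tested genes were below without overlap, near the 5.92% of all genes, with a median of −0.03. Both are given as values and not as a result of the list. Slc20a1, a sodium-phosphate cotransporter, was at 20.7, 25.8 and 23.6 CPM in sham and 16.3, 17.8 and 19.1 CPM in NX (−0.40, SE 0.14), and the cation channel gene Trpc1 at 6.14, 4.39 and 4.27 CPM in sham and 3.74, 3.56 and 3.47 CPM in NX (−0.46, SE 0.23). In the renin-angiotensin, natriuretic and endothelin list, with a median of 0.02, Mme was at 7.50, 9.06 and 7.09 CPM in sham and 4.98, 6.53 and 5.04 CPM in NX (−0.51, SE 0.19). Mme encodes neprilysin, the protease that degrades natriuretic peptides. The mineralocorticoid receptor gene Nr3c2 was at 16.3, 9.58 and 10.6 CPM in sham and 11.2, 6.21 and 6.45 CPM in NX and overlapped.

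Sympathetic and growth factor signalling genes had medians below 0. The adrenergic list had 7 of 24 positive and a median of −0.18 (−0.11 without sham 1). Its score was 0.15, 0.05 and 0.03 in sham and −0.12, −0.10 and −0.02 in NX, without overlap. Dbh, the enzyme that makes noradrenaline, was at 1.51, 1.04 and 1.52 CPM in sham and 0.507, 0.345 and 0.433 CPM in NX without overlap (−1.66, SE 0.45), and Adra1d, an alpha-1 adrenergic receptor gene, at 3.99, 1.85 and 2.41 CPM in sham and 2.38, 1.09 and 0.975 CPM in NX (−0.89, SE 0.39), where NX 1 was level with sham 3. In the insulin and growth factor list 6 of 25 were below without overlap, against 5.92% of all genes. Its median was −0.08, and −0.18 without NX 2. The adaptor gene Irs2 was at 66.7, 24.5 and 36.7 CPM in sham and 12.1, 19.7 and 24.3 CPM in NX (−1.19, SE 0.49). Nrg1, the ligand of cardiomyocyte ERBB receptors, was at 0.870, 0.289 and 0.279 CPM in sham and 0.158, 0.172 and 0.0542 CPM in NX (−1.83, SE 0.74), and its sham 1 value was the highest. Vegfa, the angiogenic factor that cardiomyocytes secrete, was at 272, 242 and 205 CPM in sham and 190.0, 144 and 132 CPM in NX (−0.63, SE 0.28).

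The smallest p-values of all tested genes belonged to 2 genes whose mean level was under 1 CPM, so that they were not among the 20. Niban3, of a family linked to cell stress, was at 1.66, 1.44 and 1.45 CPM in sham and 0.349, 0.402 and 0.162 CPM in NX (−2.26, SE 0.42). It is named with its values known. Sfrp5, a secreted Wnt inhibitor, was at 1.18, 1.10 and 1.18 CPM in sham and 0.349, 0.115 and 0.162 CPM in NX (−2.43, SE 0.50). Both were above 1 CPM in all sham libraries and below it in all NX libraries. Sfrp5 belongs to the Wnt list, whose median was 0.04. In the same list Dkk3, a secreted protein that is itself in the atrial marker list, was at 45.2, 4.91 and 51.0 CPM in sham and 14.1, 11.8 and 14.3 CPM in NX. Its sham 2 value was below every NX library. The cytosolic ribosomal protein genes were positive in all 30 of 30 tested cases by a median of 0.10, which was −0.02 without sham 1.

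The same surgery was compared in the 6 libraries of mice given JV101, which share no library with the saline comparison. Again 0 of 14412 genes passed (edgeR quasi-likelihood test, Benjamini-Hochberg, 299 at an unadjusted p under 0.05), and 736 genes (5.11%) had groups that did not overlap. The test of the difference between the saline and the JV101 effect also called 0 genes (256 at an unadjusted p under 0.05). The log2 fold change had the same sign under both injections for 63.4% of all tested genes and for 71.4% of the 1559 whose saline groups did not overlap. For the 20 named genes the sign was the same in 14, 8 of 10 higher and 6 of 10 lower, and none of the 20 had JV101 groups apart. Under JV101 the log2 fold change was 0.24 for Cdk2, 0.18 for Nr4a3, −0.06 for Nfil3, −0.24 for Ces1d and −0.14 for Stip1.

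Lists differed in how they stood under JV101. The chaperone median was −0.42 with saline and −0.19 with JV101, matrix 0.50 and 0.22, fibroblast 0.48 and 0.30, branched-chain amino acid breakdown −0.24 and −0.18, and fatty acid oxidation −0.16 and −0.26. The cell cycle median was 0.49 and −0.03, neutrophil 1.93 and −1.23, and atrial −1.12 and 0.88. The interferon-gamma list was at −0.59 and 0.67, and the mesothelial list at 0.36 and −0.34. In these last 5 lists the sign differed between the injections, and that difference was not tested over the lists.

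Of the 1559 genes whose saline groups did not overlap, 55 (3.53%) had JV101 groups apart in either direction, no more than the 5.11% of all tested genes. In 33 of these 55, or 2.12% of the 1559, the direction was the same, 9 above and 24 below. The values below describe single genes and do not set them apart from that background. The 4 named next were picked with their values known. Mme was among them, at −0.51 (SE 0.19) with saline and −0.54 with JV101. Rbm3, an RNA-binding protein induced by cold, was at 21.5, 18.2 and 27.3 CPM in sham and 34.5, 28.0 and 29.9 CPM in NX, or 0.46 (SE 0.18), and at 0.71 with JV101. Adcy8, a calcium-stimulated adenylyl cyclase, was at 0.921, 1.67 and 1.02 CPM in sham and 0.761, 0.460 and 0.217 CPM in NX, or −1.27 (SE 0.55), and at −1.26 with JV101. The glucuronosyltransferase gene Ugt1a6a, of a locus whose members share exons and reads, was at 0.0512, 0.115 and 0.279 CPM in sham and 0.634, 0.460 and 1.25 CPM in NX, or 2.33 (SE 0.75), and at 2.76 with JV101.

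**Figure D5:**
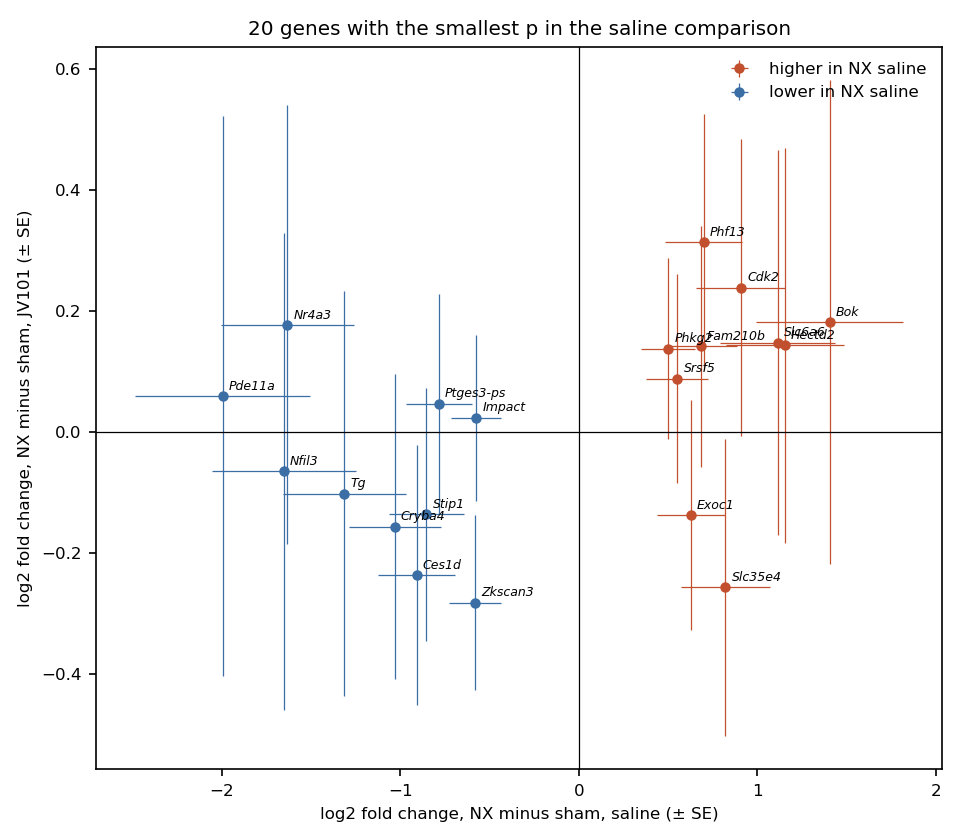
Log2 fold change of nephrectomy over sham in JV101 libraries (vertical axis) against that in saline libraries (horizontal axis) for the 20 genes with the smallest saline p; bars are ± SE. The genes were chosen on the horizontal axis, and 14 of 20 keep their sign on the vertical axis, where values lie between −0.28 (Zkscan3) and 0.31 (Phf13).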

How the data were processed

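For each of the 12 libraries the authors deposited counts per gene and FPKM values. Per the labels' protocols RNA was purified with an RNeasy Mini Plus kit and polyA libraries were made from 1.3 µg with a VAHTS Universal V6 kit, and per the submitters' processing notes fastp, HISAT2 and HTSeq were used with GRCm39. The sources used here give neither tool versions nor the annotation or the strand setting, so antisense and overlapping genes cannot be told apart. Columns were matched to samples by the column name in each label. All tests used the deposited counts (22794 genes), and the deposited FPKM values served 1 alternative only. Both imply the same gene lengths in 9643 genes (largest relative difference 1.5e-08).

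edgeR 4.0.16 (R 4.3.3) fitted a quasi-likelihood model to 14412 genes kept by filterByExpr (minimum count 10, minimum total 15), with TMM factors and the 4 groups of 3 libraries as the only term. Tests were 2-sided F tests adjusted over all genes by Benjamini-Hochberg at 0.05. Log2 fold changes are NX minus sham, and SE is the log2 fold change over the square root of F. CPM use TMM-scaled library sizes, in which 1 CPM is 17.32 to 39.08 counts. The fit was tested on simulated data.

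Named genes are the 10 in each direction with the smallest p at a mean of 1 CPM or more, leaving out predicted genes and clone names, and in each list the 2 with the highest CPM and the 2 with the smallest p. The members and lists were chosen with earlier results of these data known. Lists are described by counts, medians and scores (mean log2 CPM, prior count 2), with no set test. Alternatives were RLE and upper-quartile factors, DESeq2 1.42.0, a fit of the compared groups alone, a replicate block, omission of mitochondrial genes, a filter of 5 CPM in at least 3 libraries or none, limma 3.58.1 on log2(FPKM + 1) and log2(FPKM + 0.1), and each library left out. Added after seeing the data were voom with sample weights and fits without the 3 libraries with airway genes or the 2 with the highest mitochondrial share. RefSeq promoters of GRCm38.p6 were used for letters only, since the data are on GRCm39.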

Additional observations from a re-analysis of the deposited data

How the results depend on the processing

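With each alternative run, edgeR, limma and voom called 0 genes between NX saline and sham saline, and DESeq2 called 1, Niban3 (−2.25, adjusted p = 0.00798). Genes at an unadjusted p under 0.05 numbered 524 and ranged widely: 1430 with voom sample weights, 813 with only the groups compared, 858 without NX saline replicate 1, 253 with a filter of 5 CPM, 247 without the 2 libraries of highest mitochondrial share, and 193 and 203 with limma on log2(FPKM + 1) and log2(FPKM + 0.1). Without any 1 library 0 genes were called. The replicate numbers did not pair the libraries (correlations of same-numbered deviations 0.127, −0.0543 and −0.221), and with the replicate number as a block 0 genes were called and 405 had an unadjusted p under 0.05. Of the log2 fold changes printed, 1107 of 1110 values under other settings and 521 of 522 without 1 library kept their sign and call. The exceptions besides Niban3 were Ucp3 (−0.28) and Fabp4 (−0.42) without the 3 libraries with airway genes, where NX saline replicate 1 stood alone and was assumed to vary like the other groups, and Iigp1, which ran from −2.45 without NX saline replicate 3 to 0.77 without sham saline replicate 1. List medians moved by more than 1 SD in 46 of 727 other settings and in 18 of 336 fits without 1 library. The median SE of a log2 fold change was 0.189 over the 7037 genes at 10 CPM or more, which limits the differences that 3 libraries a group can show.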
